A study of Mus musculus with 16 samples.

Results

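8 genes of the red cell membrane were followed through erythroid maturation in mouse foetal liver with and without Nprl3. The 8 genes were Slc4a1, Ank1, Sptb, Epb41, Epb42, Rhag, Rhd and Kel, and they were taken by symbol from a table of 55416 genes. RNA had been sequenced from 16 libraries of sorted erythroblasts of E13.5 embryos, that is, embryos at day 13.5 of gestation. Cells were sorted on Ter119 and CD71 into S1, which holds erythroid progenitors of the CFU-E type, and S3, which holds basophilic erythroblasts. Each embryo gave 1 library of each stage. There were 4 wild-type (Nprl3+/+) embryos, numbered 0 and 8 (male) and 1 and 5 (female), 2 heterozygous (Het, Nprl3+/-) male embryos, numbered 3 and 4, and 2 homozygous knockout (KO, Nprl3-/-) embryos, numbered 2 (female) and 9 (male). The KO is constitutive, so every cell of the embryo carries it. Its allele lacks the promoter of Nprl3, whose product belongs to a complex that restrains the growth kinase mTORC1, and α-globin enhancers in the introns of Nprl3 were not part of the deletion. The titles and the sorting protocol give foetal liver erythroblasts, although the tissue and cell line fields of the same labels name an embryonic stem cell line.

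The red cell membrane is held in shape by a mesh of spectrin tetramers on its inner face. The mesh is tied to the lipid bilayer at 2 kinds of complex. In the ankyrin complex, ankyrin-1 (Ank1) joins β-spectrin (Sptb) to band 3, the anion exchanger encoded by Slc4a1, together with protein 4.2 (Epb42) and the Rh proteins Rhag and Rhd. In the junctional complex, protein 4.1R (Epb41) joins spectrin to short actin filaments. Kel encodes the Kell glycoprotein, a surface endopeptidase that carries blood group antigens in humans and is linked to the transporter-like protein Xk. Band 3 and the Rh and Kell proteins carry human blood group antigens, and mutations of the skeletal genes cause hereditary spherocytosis or elliptocytosis.

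The stretches upstream of the starts of 4 members are shown because all 4 genes rose from S1 to S3 while their upstream windows differ in the motifs they hold. All are 250 bases long, run 5′ to 3′ towards the start of the gene, and come from RefSeq (GRCm38.p6); each matched a single place in mm39, the build of the count table. Capitals mark GATAA, the core of the motif that GATA factors such as GATA1 bind, or CCNCNCCC, the motif of KLF1-type zinc fingers, on either strand. Rhd, on the + strand of chromosome 4, has the window chr4:134591597-134591846; Rhag, on the + strand of chromosome 17, has chr17:41121790-41122039; Kel, on the - strand of chromosome 6, has chr6:41681260-41681509; and Sptb, on the - strand of chromosome 12, has chr12:76757322-76757571.
Rhd: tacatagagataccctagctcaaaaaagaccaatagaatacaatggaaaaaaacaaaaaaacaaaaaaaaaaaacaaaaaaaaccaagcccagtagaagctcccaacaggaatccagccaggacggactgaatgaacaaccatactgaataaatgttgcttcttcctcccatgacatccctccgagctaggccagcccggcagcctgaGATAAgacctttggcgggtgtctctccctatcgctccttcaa
Rhag: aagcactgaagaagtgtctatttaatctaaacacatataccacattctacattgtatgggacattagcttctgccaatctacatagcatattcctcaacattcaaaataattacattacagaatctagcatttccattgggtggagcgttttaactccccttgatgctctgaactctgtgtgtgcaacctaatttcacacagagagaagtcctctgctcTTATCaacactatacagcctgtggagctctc
Kel: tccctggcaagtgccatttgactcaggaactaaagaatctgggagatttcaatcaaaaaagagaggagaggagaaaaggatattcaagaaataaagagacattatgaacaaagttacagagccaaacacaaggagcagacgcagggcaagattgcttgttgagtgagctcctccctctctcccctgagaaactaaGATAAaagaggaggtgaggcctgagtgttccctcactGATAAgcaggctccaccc
Sptb: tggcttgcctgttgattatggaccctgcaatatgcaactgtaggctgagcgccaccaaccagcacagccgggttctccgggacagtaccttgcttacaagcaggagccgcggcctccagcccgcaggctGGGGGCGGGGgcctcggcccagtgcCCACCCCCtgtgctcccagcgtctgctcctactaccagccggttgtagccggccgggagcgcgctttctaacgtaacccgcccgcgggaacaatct

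The Rh and Kell windows held GATAA and no CCNCNCCC. In Rhd the GATAA began 42 bases before the start, in Kel there was one 55 and another 18 bases before it, and in Rhag the motif lay on the opposite strand (TTATC), 31 bases before it. The Sptb window held 3 matches to CCNCNCCC, of which a pair overlapped, and no GATAA. Of 32851 promoter windows of this length in the RefSeq table, 22.6% held GATAA and 45.9% held CCNCNCCC. The last 23 bases of the Rhag window and the last 14 of the Kel window lie inside the gene as it was counted. Windows were found for 6 of the 8 members, and those of Epb41, which has 3, and of Epb42, which lies mostly inside the gene as counted, are not shown.

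Libraries held between 20666044 and 37609502 counted reads. In each library a member had between 189 and 204281 reads, the lowest being Slc4a1 in the S1 library of KO embryo 2, so that counting error was small beside the differences between embryos. Levels are given as RPKM, the reads of a gene per kilobase of its length, scaled to sequencing depth by TMM over all 16 libraries. The length is that of all exons of the gene merged, so comparisons of level between genes depend on it and are rough. In S3, globin genes took 10.0% to 11.9% of reads. In S1 they took 1.07% and 1.00% in wild-type embryos 0 and 8, and 0.0738% to 0.306% in the other 6. These same wild-type S1 libraries stood apart in other ways: the summed level of 11 neutrophil markers was 196 and 121 CPM (counts scaled to library depth), against 1105 to 1651 in the other 6 S1 libraries, and that of 14 hepatoblast markers was 367 and 364, against 32.9 to 186. At S3 the hepatoblast sum was also highest in embryos 0 and 8, with 1001 and 615 against 106 to 305 in the other 6. Markers of erythroblasts were present in every library and rose from between 1943 and 8812 CPM at S1 to between 144310 and 186455 at S3. Markers of other cells were present too: the neutrophil sum was 1.11 to 13.7 CPM at S3, and the sum of 15 macrophage markers was 33.03 to 69.4 at S1 and 25.98 to 106 at S3. A single gene of each of these lists, Ly6g and Vsig4, had 0 reads in all 16 libraries. The edgeR log2 differences of the members between stages and genotypes were therefore also computed without embryos 0 and 8, a choice made after seeing the data; levels, orders and ratios include both unless stated. The part of these other cells in the results was not tested, and in sorted pools fewer cells of a type and less RNA per cell cannot be told apart.

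Nprl3 itself was read first, as a check of the labels. At S1 it stood at 3.49, 2.78, 3.05 and 4.47 RPKM in wild-type embryos 0, 1, 5 and 8, at 1.63 and 1.67 in Het and at 0.0409 and 0.0867 in KO embryos 2 and 9, and the KO difference passed the test (log2 difference -5.72 ± 0.43 SE, adjusted p = 0.0212 by edgeR). At S3 the KO libraries held 14.5 and 15.4 RPKM against 18.9 to 28.2 in wild-type. Both KO libraries lay below every wild-type and Het library, but the difference from wild-type did not pass the test (log2 difference -0.55 ± 0.19, adjusted p = 0.381). Spliced transcripts that start at the enhancers inside the gene, which are known not to encode the protein, also fall on Nprl3, so at S3 a gene count cannot be read as transcription from the deleted promoter.

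All 8 members rose from S1 to S3 in wild-type embryos, by between 7.12-fold and 57.0-fold. The genes of band 3 and its companion protein 4.2 rose most, those of ankyrin and Rhag least, and the spectrin, 4.1, Kell and RhD genes lay between. The test was edgeR's quasi-likelihood test on counts with Benjamini-Hochberg adjustment over 13514 genes. In the same comparison 30.6% of all genes tested were called higher at S3 and 35.0% lower, and the median log2 change of all genes was -0.08 against 4.07 for the members. For all 8 members each wild-type S3 library lay above each wild-type S1 library, which was so for 28.6% of genes tested.

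**Figure D1:**
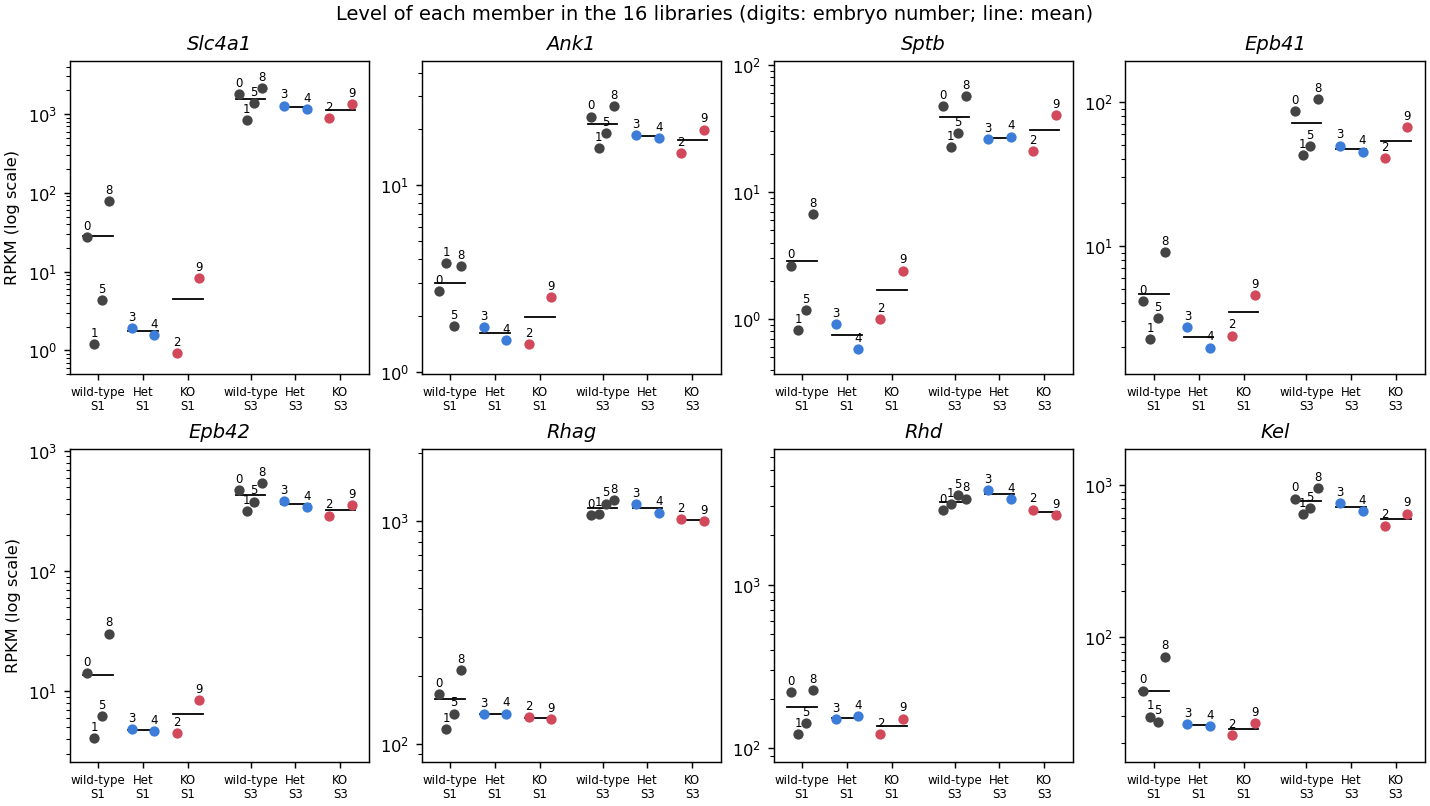
Level of each member in RPKM on a log scale, by genotype and stage; each point is a library, the digit beside it is the embryo number and the line is the group mean. S3 lies above S1 for all 8 genes in all 3 genotypes, and in S1 wild-type embryo 8 is highest for 7 of the 8.

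Slc4a1, the anion exchanger and the main membrane anchor of the skeleton, covered the widest range. At S1 it stood at 27.5, 1.21, 4.33 and 78.5 RPKM in wild-type embryos 0, 1, 5 and 8, at 1.91 and 1.57 in Het embryos 3 and 4, and at 0.920 and 8.18 in KO embryos 2 and 9. At S3 it stood at 1792, 834, 1366 and 2128 in wild-type, 1280 and 1156 in Het, and 884 and 1341 in KO. Among S1 libraries of the wild-type the highest was 65.0 times the lowest, whereas at S3 it was 2.55 times the lowest. The log2 change from S1 to S3 was 5.83 ± 1.13 in wild-type (adjusted p = 0.00107).

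Epb42, whose product binds band 3 and ankyrin, followed a similar course at lower levels. Wild-type S1 libraries held 14.2, 4.09, 6.17 and 30.1 RPKM, and wild-type S3 libraries 471, 313, 379 and 540. Het embryos went from 4.84 and 4.66 to 384 and 339, and KO embryos from 4.50 and 8.37 to 289 and 355. Embryos 0 and 8 were the highest wild-type libraries at both stages, and the wild-type log2 change was 5.00 ± 0.59 (adjusted p = 3.91e-05).

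Ank1, which couples β-spectrin to band 3, had the smallest log2 change of the 8 in wild-type, close to that of Rhag, while in Het and KO that of Rhag was smaller. It stood at 2.69, 3.83, 1.75 and 3.67 RPKM in wild-type S1 libraries and at 23.3, 15.7, 19.01 and 26.6 in wild-type S3 libraries. Het embryos went from 1.73 and 1.48 to 18.6 and 17.9, and KO embryos from 1.41 and 2.52 to 14.9 and 19.9. Embryo 1 had the highest wild-type level of Ank1 at S1 and the lowest at S3, and the log2 change was 2.83 ± 0.27 (adjusted p = 9.20e-06). Of the Ank1 exon bases counted, 6.37% overlap the antisense gene Gm15816, and reads of the 2 cannot be told apart there if strand was not used.

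Sptb, the β-chain of spectrin, had the lowest mean of the 8 at S1. Its wild-type S1 levels were 2.64, 0.822, 1.18 and 6.71 RPKM and its wild-type S3 levels 47.3, 22.6, 29.3 and 57.0. Het embryos went from 0.912 and 0.579 to 26.2 and 27.3, and KO embryos from 0.992 and 2.41 to 20.98 and 40.4. Epb41, which locks spectrin to actin, ran beside it: 4.13, 2.26, 3.14 and 9.08 RPKM at S1 and 86.8, 42.6, 49.6 and 105 at S3 in wild-type. In Het embryos Epb41 went from 2.71 and 1.96 to 49.9 and 45.2, and in KO embryos from 2.39 and 4.53 to 41.0 and 67.1. At both stages embryos 0, 8 and 9 lay above the other 5 embryos for Sptb and for Epb41, and all 3 are male, as are Het embryos 3 and 4. The same 3 embryos had the highest S1 sums of hepatoblast markers (367, 364 and 186 CPM against 32.9 to 84.4 in the other 5) and of 3 embryonic globin genes that mark primitive erythroid cells (51.2, 87.3 and 29.1 against 2.02 to 5.18). At S3 this did not hold: the hepatoblast sum was 271 in embryo 9 and 305 in embryo 1, and the embryonic globin sum was highest in embryo 1 (4382) and Het embryo 3 (3784). The sum of 10 megakaryocyte markers was highest at S3 in embryos 0, 8 and 9 (107, 72.7 and 129 against 58.0 to 63.9), though not at S1, and the part of any of these cells was not tested. The wild-type log2 changes were 3.82 ± 0.63 for Sptb (adjusted p = 0.000358) and 3.97 ± 0.47 for Epb41 (adjusted p = 3.76e-05).

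Rhag, an ammonium and gas channel that the Rh complex needs to reach the surface, was already abundant at S1. It stood at 166, 116, 136 and 213 RPKM in wild-type S1 libraries and at 1059, 1074, 1190 and 1237 in wild-type S3 libraries. Het embryos went from 136 and 136 to 1186 and 1085, and KO embryos from 131 and 129 to 1017 and 997. Rhd, the mouse gene of the Rh antigen protein, had the highest mean RPKM of the members in all 6 groups. Its levels in wild-type were 222, 123, 142 and 227 RPKM at S1 and 2861, 3092, 3535 and 3346 at S3. In Het embryos Rhd went from 151 and 157.5 to 3767 and 3340, and in KO embryos from 122 and 152 to 2866 and 2666. Among the members the Rh genes varied least between wild-type embryos at S3, and there embryo 0 was the lowest of the 4 for both. The wild-type log2 changes were 2.87 ± 0.19 for Rhag (adjusted p = 1.09e-06) and 4.18 ± 0.24 for Rhd (adjusted p = 4.80e-07).

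Kel, the Kell endopeptidase, stood at 44.3, 29.8, 27.7 and 74.1 RPKM in wild-type S1 libraries and at 812, 645, 705 and 948 in wild-type S3 libraries. Het embryos went from 26.6 and 25.7 to 759 and 671, and KO embryos from 22.6 and 27.0 to 539 and 646. Embryos 0 and 8 were again the highest at both stages, and the wild-type log2 change was 4.17 ± 0.32 (adjusted p = 2.36e-06).

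The rise was seen in the other genotypes too. All 8 members were called higher at S3 in Het embryos, where 36.3% of genes tested were, and in KO embryos, where 24.7% were. Every S3 library lay above every S1 library for all 8 members in Het (42.3% of genes tested) and in KO (36.6%). For Slc4a1 the log2 change was 9.45 ± 0.21 in Het and 7.91 ± 1.19 in KO, against 5.83 ± 1.13 in wild-type. Each SE rests on a spread that edgeR shares over genes, so the small SE in Het is not that of its embryos alone. Without embryos 0 and 8 the wild-type change of Slc4a1 was 8.64, and that of the other 7 members was between 2.62 (Ank1) and 6.07 (Epb42), with all 8 still called. Within single embryos the log2 change of Slc4a1 ran from 4.76 in wild-type embryo 8 to 9.90 in KO embryo 2, and that of Rhag from 2.54 to 3.21. With the embryo as a replicate block all 8 wild-type calls held.

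**Figure D2:**
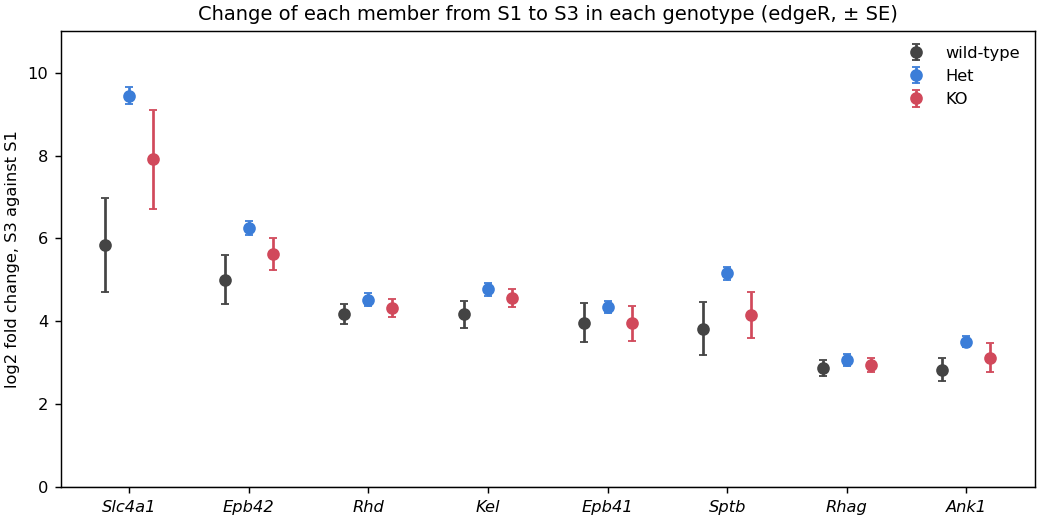
Log2 fold change from S1 to S3 of each member (points) with its standard error (bars) in wild-type, Het and KO embryos, ordered by the wild-type value. All 24 values are above 0, from 2.83 for Ank1 in wild-type to 9.45 for Slc4a1 in Het.

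Per kilobase, the order of the members changed between stages. This order depends on the merged exon length, which ran from 1594 bases for Rhd to 16386 for Epb41. By reads at S3, Slc4a1 exceeded Rhd in wild-type embryos 0 (204281 against 106282), 5 and 8. In wild-type embryo 1 it did not (88896 against 107420). By group mean, wild-type S1 libraries held most Rhd (179 ± 53.7 RPKM, SD, n = 4) and Rhag (157.97 ± 42.2), whose ranges overlap, then Kel (44.0 ± 21.4), Slc4a1 (27.9 ± 35.7), Epb42 (13.7 ± 11.8), Epb41 (4.65 ± 3.05), Ank1 (2.99 ± 0.965) and Sptb (2.84 ± 2.7). From Kel downwards each neighbour in this order overlapped the next, and only Rhag and Kel were separated. Wild-type S3 libraries held most Rhd (3209 ± 294), then Slc4a1 (1530 ± 559) and Rhag (1140 ± 87.3), which overlap, Kel (777 ± 133), Epb42 (426 ± 100), and then Epb41 (71.1 ± 30.0), Sptb (39.1 ± 15.9) and Ank1 (21.2 ± 4.78), each of which overlaps the next. By these means Slc4a1 went from the fourth place to the second, and Ank1 and Sptb exchanged the last places. The fourth place of Slc4a1 at S1 rested on embryos 0 and 8: in wild-type embryos 1 and 5 its mean was 2.77 RPKM, below Epb42 at 5.13. In Het and KO embryos at S1 it also stood below Epb42, with 1.74 and 4.55 RPKM against 4.75 and 6.43. At S3 the order of the means in Het and KO embryos was that of wild-type at S3, with Slc4a1 in the second place.

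Transcript ratios between partners do not depend on the scaling of a library, and 4 of the 6 examined shifted between stages in the same direction in all 8 embryos. They were compared as S3 minus S1 within an embryo by an exact two-sided sign-flip permutation test over the 8 embryos, whose smallest possible p is 0.00781. All 4 reached it, which gives an adjusted p = 0.0117 over the 6 ratios in this exact test. The ratio of Epb42 to Slc4a1 fell by 2.42 ± 1.18 (SD, n = 8 embryos) on the log2 scale, from 0.518, 3.39, 1.42 and 0.384 (Epb42 over Slc4a1, counts per kilobase) in wild-type S1 libraries to 0.263, 0.376, 0.277 and 0.254 in wild-type S3 libraries. At S1 this ratio differed widely between embryos, with 4.89 in KO embryo 2 the highest, and at S3 it lay between 0.254 and 0.376 in all 8. The ratio of Ank1 to Sptb fell by 1.34 ± 0.75, and it too ended in a narrow range, with Ank1 below Sptb in all 8 S3 libraries.

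Within the Rh and Kell complexes the ratios rose. The ratio of Rhd to Rhag rose by 1.38 ± 0.19 on the log2 scale. Rhd and Rhag were nearly equal per kilobase at S1 (ratio 0.933 to 1.33) and Rhd was between 2.67 and 3.18 times Rhag at S3. The ratio of Kel to Xk, the gene of its disulphide-linked partner, rose by 1.95 ± 0.26, from between 2.85 and 5.33 to between 11.6 and 19.5. The ratio of Epb41 to Sptb (-0.33 ± 0.49, exact p = 0.102) did not pass the test. In 4 comparisons of KO or Het with wild-type at either stage, none of the 24 ratio differences passed an exact permutation test, in which 2 embryos against 4 cannot go below 0.0667.

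**Figure D3:**
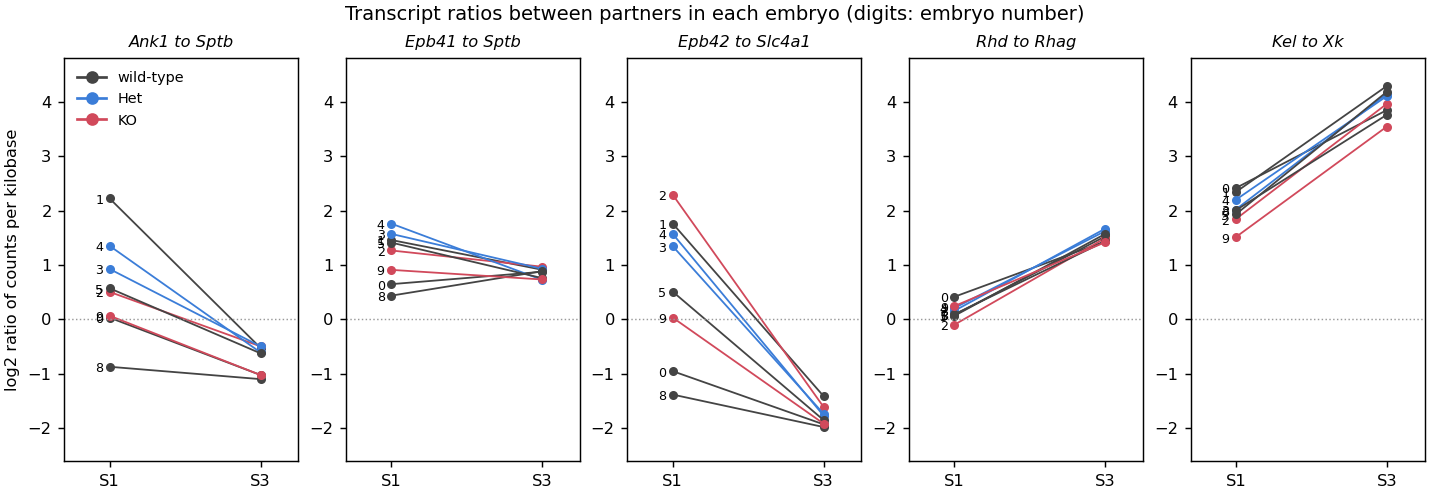
Log2 ratio of counts per kilobase of 5 partner pairs at S1 and S3; each line joins the 2 libraries of an embryo, coloured by genotype, with its number at S1. Epb42 to Slc4a1 and Ank1 to Sptb fall in all 8 embryos, and Rhd to Rhag and Kel to Xk rise in all 8.

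Of 17 genes of skeletal and anchoring proteins, 11 were called higher at S3 in wild-type, against 30.6% of all genes tested, none was called lower and 6 passed in neither direction, with a median log2 change of 2.29. Without embryos 0 and 8, 11 were called higher and 2, Tpm4 and Add3, lower. Among the largest rises were those of Dmtn, the actin-bundling protein dematin (5.20 ± 0.51, adjusted p = 1.09e-05), and Tmod1, which caps actin filaments (4.87 ± 0.52). The 6 that did not pass were Actb, Tmod3, Tpm3, Tpm4, Add3 and Flot1, with values between -0.70 (Tpm4) and 0.45 (Actb).

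Of 25 further blood group genes, 21 had enough reads to be tested, and 16 were called higher and 2 lower at S3 in wild-type, against 30.6% and 35.0% of all genes tested, with a median log2 change of 2.15. Ackr1, the Duffy chemokine receptor, rose by 5.95 ± 0.60, Cd59a, a complement inhibitor, by 4.65 ± 0.17, and Art4, the Dombrock protein, by 4.03 ± 0.38. The 2 called lower were Cd44, the Indian blood group protein and a hyaluronan receptor (-2.57 ± 0.18, adjusted p = 1.45e-06), and Slc44a2, a choline transporter-like protein (-0.83 ± 0.25, adjusted p = 0.0127). Xk rose by 2.34 ± 0.36, less than Kel. Cd44 went from 8.79 to 12.6 RPKM in wild-type S1 libraries to 1.34 to 2.18 in S3 libraries, opposite to the 8 members. The neutrophil sum also fell between these libraries, from between 121 and 1280 CPM to between 1.11 and 4.94, and the part of these cells in the fall of Cd44 was not tested.

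The paralogs of the members, most of which serve the same tasks in other cells, moved in both directions. Of 16 genes listed, 11 were tested in wild-type, 4 were called higher and 2 lower, against 30.6% and 35.0% of all genes tested, and the median log2 change was -0.27. Without embryos 0 and 8, 3 were called higher, Ank3 no longer among them, and 3 lower. Sptbn1, the β-spectrin of non-erythroid cells, fell from 0.295 to 0.903 RPKM at S1 to 0.0621 to 0.125 at S3 (log2 change -2.42 ± 0.43, adjusted p = 0.000611), so Sptb and Sptbn1 moved in opposite directions. Epb41l1 (5.17 ± 0.44) and Epb41l3 (2.10 ± 0.56), relatives of Epb41, rose, as did the ankyrin gene Ank3 (1.11 ± 0.42, adjusted p = 0.0387) and Tgm2, a transglutaminase related to Epb42 (2.60 ± 0.48), while Tgm1 fell (-2.18 ± 0.59). Slc4a2 (-0.27), Ank2 (-0.90), Epb41l2 (-0.38) and Ece1 (-0.16) did not pass. At S3 in wild-type, 3 of the paralogs that rose stayed below every member: Epb41l1 reached at most 0.764 RPKM, Epb41l3 0.352 and Ank3 0.0505. Tgm2 stood at 28.9 to 48.2, above Ank1 at 15.7 to 26.6.

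Likeness of course was measured as the root-mean-square difference, over the 16 libraries, of log2 CPM centred on each gene's mean, so that 0 means the same course; these points share libraries and the rise from S1 to S3, and the values are a description. Among 13416 genes, Rhag was closest to Map2k3 (0.0856) and Cltb (0.101), Rhd to Gmpr (0.102) and Ctsb (0.127), and Epb42 to E2f2 (0.134) and Itsn1 (0.152). Ank1 was closest to Suco (0.147) and Dleu2 (0.163), Kel to Fbxo30 (0.184) and Rnf11 (0.208), and Epb41 to Trak2 (0.200) and Marchf8 (0.209). For Sptb the closest were Gm42571 (0.291) and Dnajb13 (0.352), and for Slc4a1, which varied most, Runx1t1 (0.543) and Ypel4 (0.568). Among the members themselves the closest pairs were Rhd with Kel (0.274), Sptb with Epb41 (0.354) and Epb41 with Kel (0.376).

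The next comparison asked whether loss of Nprl3 altered these genes. None of the 8 members passed the test at S3 between KO and wild-type, in a comparison that called 0.559% of 11804 genes. All 8 were lower in KO by group estimate, with log2 differences from -0.45 ± 0.35 (Slc4a1) to -0.17 ± 0.14 (Rhag), a median of -0.36 against 0.01 for all genes, and adjusted p between 0.649 (Kel) and 0.917 (Sptb). The other values were -0.39 ± 0.22 for Epb42, -0.38 ± 0.38 for Epb41, -0.38 ± 0.18 for Kel, -0.34 ± 0.39 for Sptb, -0.27 ± 0.22 for Ank1 and -0.20 ± 0.15 for Rhd. Rhag alone lay lower in both KO libraries (1017 and 997 RPKM) than in all 4 wild-type libraries (1059 to 1237), as did 9.36% of genes tested. Without wild-type embryos 0 and 8 the differences of Slc4a1 (0.03), Ank1 (0.015), Sptb (0.26) and Epb41 (0.25) were above 0, and Rhd (-0.25), Kel (-0.17), Rhag (-0.15) and Epb42 (-0.09) stayed below. The summed level of 15 macrophage markers was 38.4 and 25.98 CPM in the KO S3 libraries and 53.4 to 106 in wild-type, with 3 of 13 tested called lower, and the part of these cells in the member values was not tested. The summed level of 10 erythroblast markers, most of it from globin genes, was also lower in both KO S3 libraries (144725 and 144310 CPM) than in all 4 wild-type libraries (154634 to 185743), as was the globin share (10.0% and 10.6% against 10.8% to 11.8%), with 0 of 9 markers tested called.

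Set against wild-type embryos of the same sex, the KO libraries were lower at S3. KO embryo 9 lay below both wild-type males for all 8 members, with log2 differences from the male mean between -0.55 (Slc4a1) and -0.20 (Rhag). KO embryo 2 lay below both wild-type females for 7 members, all but Slc4a1, for which it stood at 884 RPKM against 834 and 1366. In all, 7 of the 8 members were thus lower in both sexes, against 21.1% of genes tested. The wild-type males are embryos 0 and 8, which stand apart from the others, so the male comparison rests on these libraries. With 1 KO embryo of each sex this has no test of its own. With sex as a covariate edgeR called none of the 8, while DESeq2 called Kel (-0.38 ± 0.10, adjusted p = 0.00544) and Epb42 (-0.38 ± 0.11, adjusted p = 0.0192), in a fit that called 3.58% of genes lower.

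**Figure D4:**
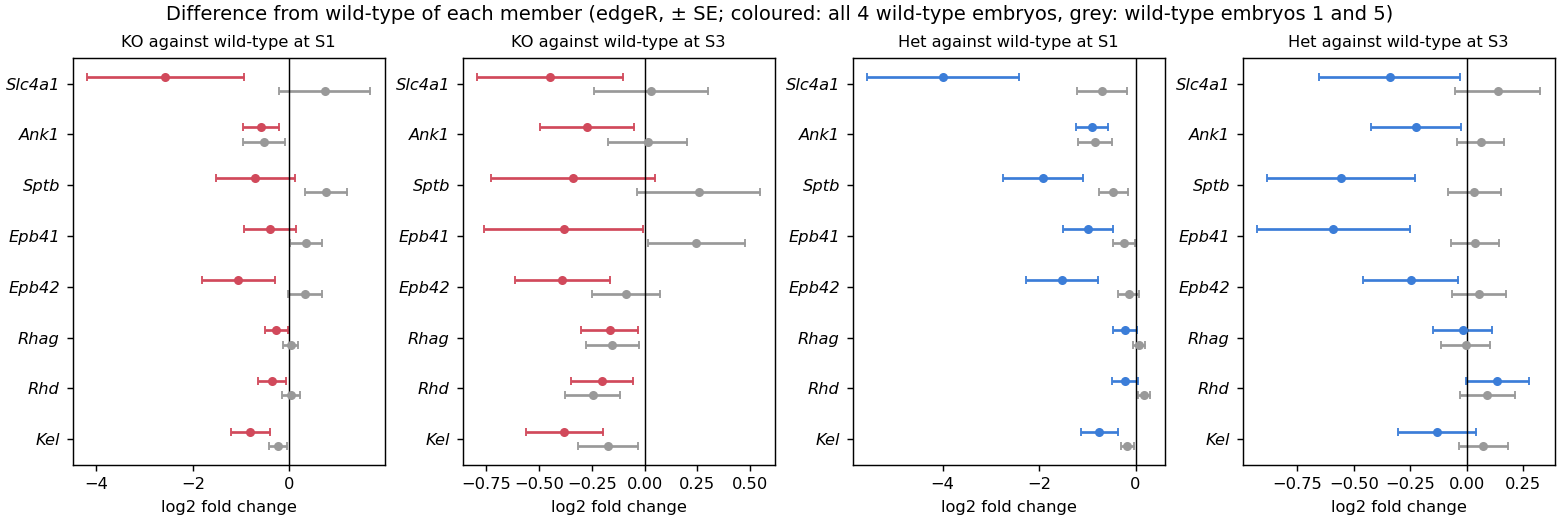
Log2 difference from wild-type of each member (points) with its standard error (bars) for KO and Het at S1 and S3, with all 4 wild-type embryos (coloured) and with wild-type embryos 1 and 5 only (grey). With embryos 0 and 8 included nearly all values are below 0, and without them most of the values move to near or above 0.

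At S1 no member passed either between KO and wild-type, where 0.00712% of genes did. All 8 differences were again below 0, from -2.57 ± 1.63 for Slc4a1 and -1.06 ± 0.76 for Epb42 to -0.27 ± 0.24 for Rhag, with a median of -0.65 against -0.01 for all genes. Both KO S1 libraries also lay above every wild-type S1 library in the neutrophil sum (1574 and 1651 CPM against 121 to 1280) and the macrophage sum (68.1 and 69.4 against 33.03 to 56.3), although none of the 10 and 13 markers tested was called, and the part of these cells was not tested. Kel was the member for which both KO libraries (22.6 and 27.0 RPKM) lay below the 4 wild-type libraries (27.7 to 74.1), as did 3.26% of genes. In both sexes the KO library lay below the wild-type libraries of its sex for 4 members (Slc4a1, Ank1, Rhd and Kel), against 8.55% of genes. Without embryos 0 and 8 only Ank1 (-0.53) and Kel (-0.23) stayed below 0, and Slc4a1 went to 0.73 and Sptb to 0.76. Embryos 0 and 8 are the wild-type S1 libraries with the higher globin share, and whether that share and these differences have a common source was not tested.

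**Figure D5:**
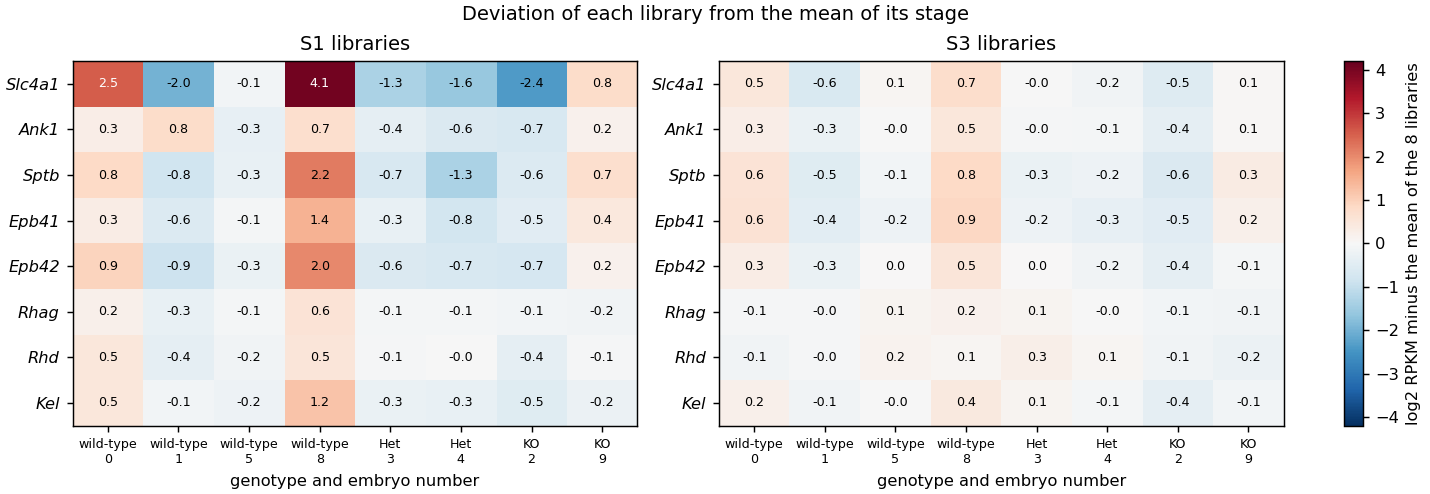
Log2 RPKM of each member in each library minus its mean over the 8 libraries of that stage; columns are libraries by genotype and embryo number, and the colour runs from blue (below) to red (above). At S1 wild-type embryos 0 and 8 are above the mean for all 8 genes, by up to 4.1 for Slc4a1 in embryo 8, and at S3 the deviations are smaller and Rhag and Rhd vary least.

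Het embryos, which keep 1 copy of the Nprl3 promoter, gave the same outcome with all 4 wild-type embryos. None of the 8 members passed at S3 or at S1, and in both comparisons 0.0% of genes were called; 373 of 11746 genes at S3 and 589 of 13818 at S1 had an unadjusted p under 0.05, among them Ank1 (-0.90 ± 0.32) and Slc4a1 (-3.99 ± 1.58) at S1. DESeq2 called 1 gene at S3 and 30 at S1, none of them a member. At S3 the member values ran from -0.59 ± 0.34 (Epb41) to 0.14 ± 0.14 (Rhd), and no member had both Het libraries below all wild-type libraries, as 6.26% of genes did. At S1 they ran from -3.99 (Slc4a1) to -0.22 (Rhd), and for Ank1 and Kel both Het libraries lay below all wild-type libraries, as for 8.22% of genes. Marker sums also lay outside the wild-type range in both Het S1 libraries: that of neutrophils was higher (1535 and 1520 CPM against 121 to 1280), and those of hepatoblasts (49.9 and 32.9 against 66.3 to 367), megakaryocytes (30.4 and 25.996 against 39.6 to 73.9) and erythroblasts (2238 and 2408 against 2533 to 8812) were lower. At S3 the hepatoblast sum was lower in both Het libraries (167 and 224 against 227 to 1001), and the part of these cells was not tested.

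Both Het embryos are male, so a fit with sex sets them against wild-type males 0 and 8. In that fit edgeR called 5 members lower at S3 (Slc4a1, Ank1, Sptb, Epb41 and Epb42, with -1.03 ± 0.13 for Epb41), where 9.25% of genes were called lower, and DESeq2 called 4, where 8.32% were. At S1 edgeR with sex called Slc4a1 (-4.91 ± 0.66), Sptb, Epb42 and Kel, where 1.55% of genes were called lower, and DESeq2 with sex called 5, where 3.5% were. When embryos 0 and 8 were left out, the S3 differences of all members but Rhag (-0.01) were between 0.03 and 0.14 and the S1 differences between -0.84 (Ank1) and 0.18 (Rhd), none of which passed. The sex of the embryo and the standing of embryos 0 and 8 cannot be told apart in the wild-type group.

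Whether genotype altered the rise from S1 to S3 was tested as an interaction. No member passed for KO, where 0.00742% of genes did, with values from 0.04 ± 0.73 (Epb41) to 2.16 ± 1.67 (Slc4a1). None passed for Het, where 0.0% of 13364 genes did and 374 had an unadjusted p under 0.05, among them Slc4a1 (3.60 ± 1.51); DESeq2 called 0 genes there. Without wild-type embryos 0 and 8 the value of Slc4a1 was -0.70 for KO and 0.82 for Het.

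By edgeR fitted to the groups compared, with the filter on low counts and no sex term, no gene of the 3 related lists passed in any of the 4 comparisons with wild-type. The smallest p at S3 between KO and wild-type were those of Aqp3, an aquaglyceroporin that carries the GIL antigen (38.3 to 55.3 RPKM in wild-type, 22.9 and 20.1 in KO, log2 difference -0.98 ± 0.20, adjusted p = 0.0929), Add3, γ-adducin (-1.09 ± 0.23, adjusted p = 0.112), and Epb41l1 (-1.34 ± 0.31, adjusted p = 0.149). For all 3 genes each KO library was lower than the lowest wild-type one, as for 9.36% of genes, and they were picked for their small p. DESeq2 called 4 of 46 related genes lower, against 0.974% of all genes: Aqp3 (adjusted p = 0.000359), Add3 (0.00102), Epb41l1 (0.00584) and Epb41l3 (0.0498). Without the filter, where 0.586% of genes were called lower, edgeR called Aqp3 (adjusted p = 0.00106), Add3 (0.00103), Epb41l1 (0.0127), Epb41l3 (0.0324) and Aqp1 (0.0498) lower, and with all 16 libraries in 1 fit it called Add3 (0.0327), where 0.119% were. With sex as a covariate edgeR called 6 of 46 lower, against 2.22% of all genes. They included Aqp3 (adjusted p = 0.00257 by edgeR), Add3 (0.00653), Epb41l1 (0.0229), Epb41l3 (0.0292) and Aqp1 (0.0416). DESeq2 with sex called 9 of 46 lower, these 5 among them, against 3.58% of all genes. At S1 DESeq2 with sex called 1 of 48 lower, Aqp3 (adjusted p = 0.0348), against 0.37% of all genes. Next by edgeR without sex were Aqp1, the water channel of the Colton antigen (-0.74 ± 0.21), Epb41l3 (-1.58 ± 0.47), Cd44 (-0.75 ± 0.26) and Flot2 (0.38 ± 0.15), with adjusted p from 0.263 to 0.518. Among the smallest p in KO at S1 were those of Aqp3 (-0.85 ± 0.32), Ermap (-0.29 ± 0.20), Gypc (-0.47 ± 0.27), Ank3 (0.98 ± 0.48) and Epb41l3 (-1.97 ± 1.07), all with an adjusted p of 0.9998.

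In Het, edgeR with sex called 2 of 46 related genes higher at S3, Smim1 among them, against 8.84% of all genes. It called 10 lower, Ece1 and Epb41l3 among them, against 9.25%. Apart from the fits with sex and the edgeR fit above, calls over the whole lists were not counted for Het. At S1 edgeR with sex called 6 of 48 lower, Epb41l3 among them, against 1.55%. DESeq2 with sex called 11 of 46 lower at S3, against 8.32% of all genes, and 10 of 48 lower at S1, against 3.5%. By edgeR without sex, the smallest p at S3 included those of Smim1, the Vel protein (0.42 ± 0.15), Cd151 (0.69 ± 0.37), Epb41l3 (-0.80 ± 0.28), Ece1 (-1.002 ± 0.36) and Tpm4 (-0.91 ± 0.48), all with an adjusted p of 0.901. At S1 they included Aqp3 (-0.75 ± 0.27), the mechanosensitive channel gene Piezo1 (-0.61 ± 0.26), Epb41l3 (-1.92 ± 0.91) and Ank2 (-1.13 ± 0.65), all with an adjusted p of 0.905. The KO and Het comparisons share the wild-type libraries, so Aqp3 and Epb41l3, which appear in several of them, were read against the same controls each time.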

How the data were processed

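The authors deposited a table of raw read counts per gene, which per the labels and the study's methods were made by aligning reads of amplified poly(A) RNA to mm39 with STAR 2.7.9 and counting with featureCounts 1.6.4; strand use is not given in the sources used here. The deposited counts were used as they stand. The table has 20 library columns, of which 4 match no sample here and were not used. Of 55416 gene IDs, 54749 matched a symbol in GENCODE by ID. Groups came from the labels. Genes with a mean normalised count above 10 over the libraries of a fit were tested with edgeR 4.0.16 (TMM, quasi-likelihood, R 4.3.3), using only the libraries compared, with Benjamini-Hochberg adjustment over all genes tested and a threshold of 0.05; DESeq2 1.42.0, named in the study, was an alternative. The procedure was also run on simulated counts that had the same dispersion for every gene and no embryo effect. That run does not show its power or error for these members. RPKM are TMM-scaled counts per kilobase of the length in the file, scaled to depth. For the likeness measure 0.1 was added to CPM, and 1 to normalised counts for changes within an embryo.

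All 8 members were named in each comparison. Of the related lists, the text names the 2 genes of smallest p in each comparison with wild-type (or all that passed), and in the wild-type stage comparison the 3 largest rises and falls that passed and the direct paralogs, with the partners of the ratios, the 2 genes most like each member, and Nprl3. Members and lists were chosen with earlier results of these data known, and genes named outside these rules were chosen after their values were seen. Results of 2 genes of the lists, with 1 of the 6 ratios, are not reported here, but both genes stay in the counts over their list and in the p-value adjustment.

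Same-numbered libraries of S1 and S3 come from the same embryo, so the numbers pair them. Their deviations from the group means correlated at 0.07, 0.21, 0.31 and 0.30 in wild-type embryos 0, 1, 5 and 8, at 0.38 in KO and at 0.04 in Het, over 13402 genes. There were 2 embryos in KO and in Het. By edgeR, p-values and SE rest on a spread between libraries that the model shares over genes, and not on a gene's own embryos alone. The edgeR SE is the size of the log2 difference divided by the square root of the F statistic. A small SE in Het or KO is thus not the precision of these 2 embryos. Read counts of the members were large, but how precision changes with depth was not tested.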

Additional observations from a re-analysis of the deposited data

Results flagged for a closer look

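Among 26 groups of 4 wild-type libraries (8 levels and 5 ratios at each stage), 1 held a library far from the other 3, with a gap to its nearest neighbour past Dixon's critical value; chance gives about 1 in 20 groups. The log2 ratio of Rhd to Rhag at S1 was 0.41 in wild-type embryo 0, against 0.06 to 0.09 in the other 3.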

How the results depend on the processing

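All 8 members remained called higher at S3 in each genotype under all alternatives, and 149 of 158 alternative values of the member counts and the ratios kept their side of the threshold. Among these alternatives, leaving out a KO or Het embryo leaves a single library of its group at a stage, so the spread there comes from other groups. With sex as a covariate 2 members were called for KO at S3 (DESeq2), 5 (edgeR) and 4 (DESeq2) for Het at S3, and 4 (edgeR) and 5 (DESeq2) for Het at S1, against 0 without it. With wild-type embryos only, the ratio changes S3 minus S1 were -1.31 (Ank1 to Sptb), -1.78 (Epb42 to Slc4a1), 1.33 (Rhd to Rhag) and 1.85 (Kel to Xk), with an adjusted p = 0.188 each by the exact test, which 4 embryos cannot better.

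The replicate block changed no call of a member: 8 were called in each stage comparison and 0 in each interaction; it put the stage change of Ece1 at 0.018 and the KO interaction of Epb41 at -0.039. DESeq2, no filter and size factors by relative log expression put that Epb41 value at -0.0044, -0.037 and -0.0038. No paired analysis was possible for KO or Het against wild-type because these groups share no embryo.

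With wild-type embryos 0 and 8 left out, a choice made after seeing the data, log2 differences that changed sign were, for KO at S3, Slc4a1 0.031, Ank1 0.015, Sptb 0.26 and Epb41 0.25, and at S1 Slc4a1 0.73, Sptb 0.76, Epb41 0.35, Epb42 0.32, Rhag 0.021 and Rhd 0.032. For Het they were, at S3, Slc4a1 0.14, Ank1 0.062, Sptb 0.034, Epb41 0.036, Epb42 0.054 and Kel 0.074, and at S1 Rhag 0.073 and Rhd 0.18. The KO interaction became -0.70 for Slc4a1, -0.53 for Sptb, -0.13 for Epb41, -0.43 for Epb42, -0.21 for Rhag and -0.31 for Rhd, the Het interaction -0.077 for Rhag and -0.090 for Rhd, and the wild-type stage change of Ece1 0.22. The cause was not tested.

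Leaving out embryos in turn turned the sign of these values, given as ranges: in KO, Sptb -0.88 to 0.052 at S3, and Sptb -1.51 to 0.14 and Epb41 -0.96 to 0.12 at S1; in Het, Rhag -0.075 to 0.041 at S3; in the wild-type stage change, Slc4a2 -0.46 to 0.077 and Ece1 -0.40 to 0.37; in the KO interaction, Ank1 -0.0035 to 0.56, Sptb -0.25 to 0.57, Epb41 -0.26 to 0.20, Rhag -0.033 to 0.15 and Rhd -0.036 to 0.36.

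Genes called between KO and wild-type at S3 numbered 66 (edgeR), 259 (DESeq2), 356 (no filter), 547 (edgeR with sex) and 730 (DESeq2 with sex). They numbered 11 without wild-type embryo 0, 11 without embryo 8, 27 without embryo 1, 42 without embryo 5 and 5 without embryos 0 and 8. Leaving out a KO embryo leaves a single KO library, so counts of those fits are not given. With 2 embryos in KO and in Het, the ratios could not pass between genotypes, and the effect of depth was not tested.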
